A study of Mus musculus with 27 samples.

Results

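Chitinase-like secreted proteins were followed in olfactory mucosa after closure of 1 nostril, in female FVB mice aged 25 days. The 4 genes are Chil4 (listed on the array as Chi3l4), Chil3 (Chi3l3), Chia1 (Chia) and Chi3l1 (Chil1 in RefSeq), read by 5 of the 29922 probes on the array: 2 for Chil4 and 1 for each of the others. They are 4 of the 16637 genes with a symbol on the array. The family was selected on the occluded-against-open difference of Chil4 in these same data, so that difference is described here without a test.

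The occluded group is the mucosa behind a nostril closed by cautery, the open group is the mucosa behind the other nostril of the same mice, and the normal group comes from other mice that received a sham cautery. All groups are FVB females of 1 age, with no transgene named in the labels. Each group has 3 biological replicates and each replicate was read on 3 arrays, 27 arrays in all. The sources used here do not state the time from cautery to dissection or any pooling of mice, and where replicates are not separate mice the p-values measure only the spread between these samples. Values are log2 probe intensities after quantile normalization, averaged over the 3 arrays of a replicate. Each difference comes with the standard error (SE) of the linear model fitted to all probes with limma, and an adjusted p under 0.05 over all 29922 probes counts as a call.

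Glycosyl hydrolase family 18 holds true chitinases, which cleave chitin, the polymer of fungal walls and arthropod cuticles, and chitinase-like lectins, which keep the fold but lack the cleaving activity. In the mouse, Chia1 (acidic mammalian chitinase) is an active enzyme, while Chil3 (Ym1), Chil4 (Ym2) and Chi3l1 (BRP-39) are secreted lectin-like proteins without it. Chil3 and Chil4 arose by gene duplication in rodents. Macrophages and airway epithelium make them strongly under the cytokines IL-4 and IL-13, and Chil3 is a standard marker of alternatively activated macrophages.

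Chil4, Chil3 and Chia1 lie beside each other on mouse chromosome 3 in RefSeq's annotation of GRCm38.p6, at 106201491 to 106219479, 106147554 to 106167564 and 106113382 to 106132118. Chi3l1 lies on chromosome 1 at 134182156 to 134190031. The promoter windows of Chil4 and Chil3, from 250 bases before the start of the gene to 50 bases after it, are shown because they display how close the copies are, and because probes for the 2 genes gave different readings. The sequences are RefSeq's, GRCm38.p6, on the minus strand at chr3:106219430-106219729 for Chil4 and chr3:106167515-106167814 for Chil3. Capitals mark the motif TTCNNNGAA, the palindromic letters of a STAT factor site.
Chil4: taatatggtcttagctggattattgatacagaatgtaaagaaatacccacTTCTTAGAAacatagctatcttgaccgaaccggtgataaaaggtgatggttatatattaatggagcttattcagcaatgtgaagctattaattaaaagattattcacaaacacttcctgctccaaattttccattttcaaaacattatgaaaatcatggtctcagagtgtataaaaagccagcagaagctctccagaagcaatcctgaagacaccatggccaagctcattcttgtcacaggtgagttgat
Chil3: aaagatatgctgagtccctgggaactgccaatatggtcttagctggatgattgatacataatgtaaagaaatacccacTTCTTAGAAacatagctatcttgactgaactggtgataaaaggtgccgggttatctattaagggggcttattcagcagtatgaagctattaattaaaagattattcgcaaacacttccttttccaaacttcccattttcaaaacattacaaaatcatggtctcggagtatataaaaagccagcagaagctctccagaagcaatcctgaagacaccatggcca

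Aligned end to end with free end gaps, the Chil4 and Chil3 windows were identical at 251 of 273 columns (91.9%). The Chil4 window matched that of Chia1 at 61.2% and that of Chi3l1 at 49.2% of columns. TTCTTAGAA was present once in each of the Chil4 and Chil3 windows, with its first base at position -200 in Chil4 and -172 in Chil3 relative to the annotated start. TTCNNNGAA occurred in 8.3% of 32851 promoter windows of this length in the table. The related motif with 4 free bases, TTCNNNNGAA, occurred in 6.95% of windows and in neither of these 2, and the windows of Chia1 and Chi3l1 held neither motif. The window of Chil6, a neighbouring chitinase-like gene that was not measured, held TTCNNNGAA 2 times, with first bases at -184 and -86. Windows of the relatives Chil5, Chit1, Chid1, Ovgp1 and Ctbs held neither motif. Each motif reads the same on both strands. A match is a description of letters and not a site shown to be bound.

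At every replicate number Chil4 read lower in the occluded than in the open replicate. Its brighter probe read 11.87, 11.27 and 11.45 in occluded replicates 1 to 3, against 15.08, 13.53 and 15.85 in open replicates 1 to 3. It read 13.92, 15.01 and 13.79 in normal replicates 1 to 3. All occluded values lay below all open and all normal values, whereas open and normal values overlapped. As deposited, the intensity of this probe ran from 2188 to 3965 on the 9 occluded arrays (median 3040), from 11440 to 65904 on the 9 open arrays (median 29632) and from 11992 to 35766 on the 9 normal arrays (median 15675). The lowest open array was thus 2.89 times as bright as the highest occluded array.

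**Figure D1:**
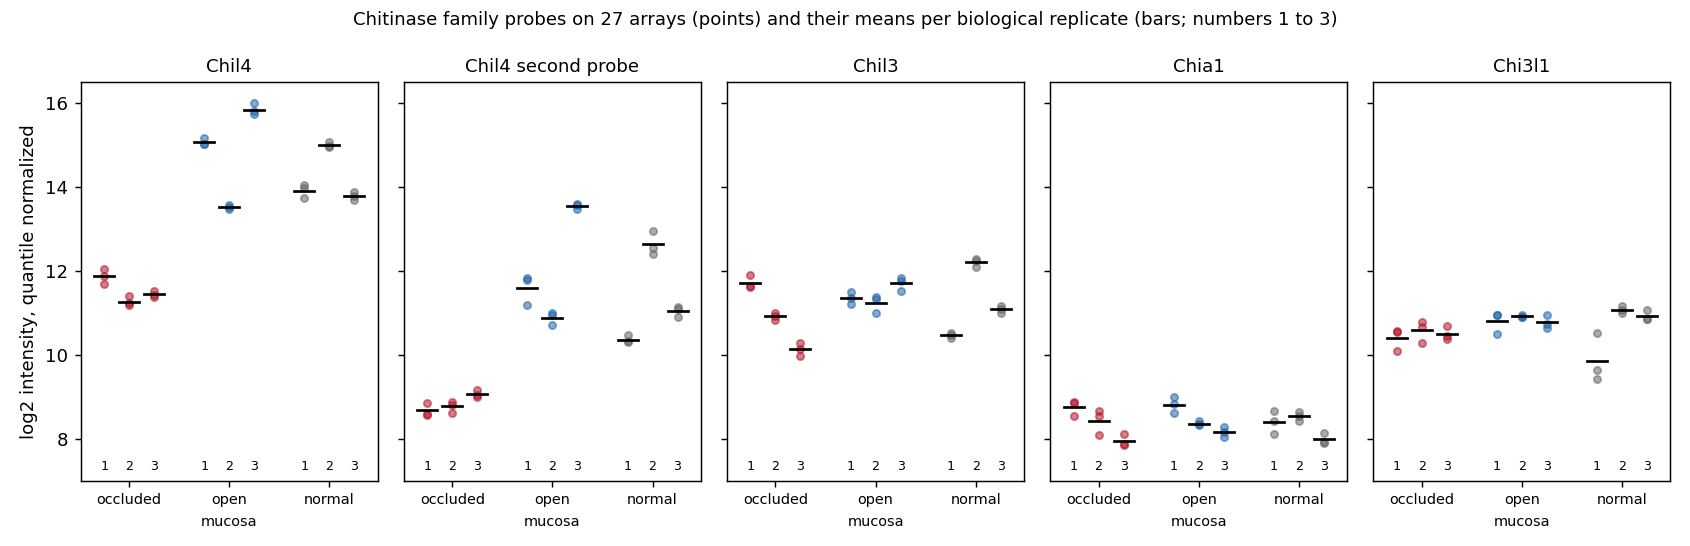
Log2 intensity (vertical axis, quantile normalized) of the 5 chitinase family probes in occluded, open and normal mucosa. Points are single arrays, bars are the means of the 3 arrays of a biological replicate, and the numbers 1 to 3 name the replicate. Both Chil4 probes are lower in the 3 occluded replicates than in every open and normal replicate, while the 3 groups overlap for Chil3 and Chia1.

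The mean of the brighter Chil4 probe was 11.53 ± 0.31 on the occluded side and 14.82 ± 1.18 on the open side (SD, n = 3 each). The difference was -3.29 ± 0.45 (SE), a 9.78-fold lower intensity, and it was the lowest of all 29922 differences between the sides. By replicate number, occluded minus open was -3.20, -2.26 and -4.41, that is 9.21-fold, 4.79-fold and at least 21.2-fold lower. The last fold, and the mean fold that includes it, are lower limits because an array of open replicate 3 was saturated. In this comparison 0.221% of all probes were called and 2.94% had all 3 occluded values below all 3 open values. Nothing is read from these shares for Chil4, since the comparison chose it. In a bulk sample, fewer cells that make a transcript and less transcript per cell cannot be told apart.

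The second Chil4 probe, which is dimmer, read 8.67, 8.77 and 9.07 in occluded replicates 1 to 3, against 11.60, 10.89 and 13.55 in open replicates 1 to 3. It read 10.37, 12.64 and 11.05 in normal replicates 1 to 3. Again no occluded value reached an open or normal one. The difference of occluded from open was -3.18 ± 0.58 (SE), the second lowest of all probes. Its replicates differed by -2.93, -2.12 and -4.48, so the order of the 3 replicate numbers was the same at both probes. Over the 9 replicate values the 2 probes had a Pearson correlation of 0.96, and of 0.85 after each group's mean was removed.

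The brighter probe came near the top of the scale in open replicate 3, where its 3 arrays read between 58451 and 65904, and 1 of them was saturated (at or above 99.5% of the array's highest value). Its level in that replicate, and each fold computed from it, is therefore a lower limit. The second probe was not saturated on any array, with a highest intensity of 14094. It gave the difference of -4.48 at the same replicate number. Without replicate 3 of both sides, a setting chosen after the values were seen, the brighter probe differed by -2.73 and the second by -2.52.

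**Figure D2:**
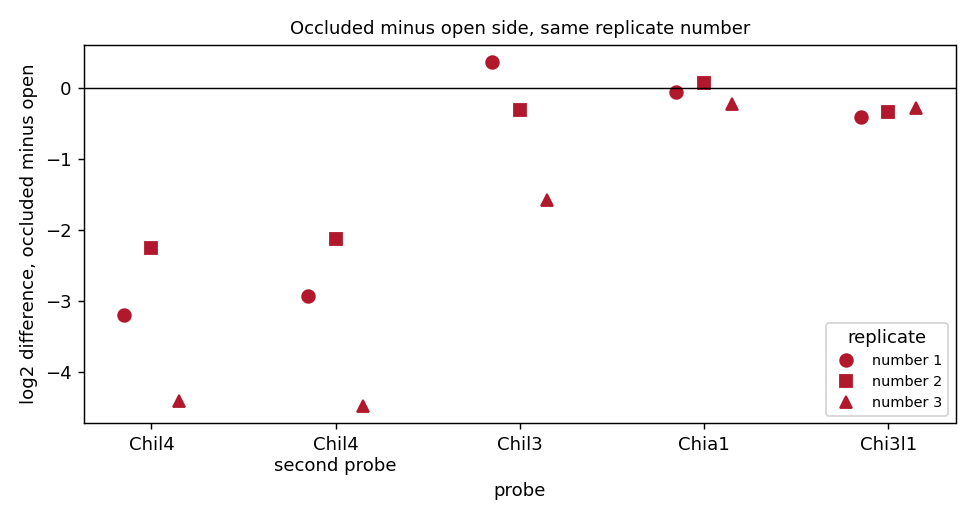
Log2 difference of the occluded from the open side (vertical axis) for each of the 5 probes (horizontal axis). Each symbol is the difference between an occluded and an open replicate of equal number. The 3 differences of both Chil4 probes lie between -4.48 and -2.12, those of Chil3 between -1.57 and 0.37, those of Chia1 between -0.22 and 0.07 and those of Chi3l1 between -0.40 and -0.27.

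Against normal mucosa, the brighter Chil4 probe averaged 11.53 ± 0.31 in occluded mucosa and 14.24 ± 0.67 in normal mucosa (SD, n = 3 each). The difference was -2.71 ± 0.58 (SE), 6.54-fold lower, with a 95% interval of -4.03 to -1.39. It did not pass (limma adjusted p = 0.49, unadjusted p = 0.0013). The second probe differed by -2.51 ± 0.74 (SE), with an interval of -4.19 to -0.84 (limma adjusted p = 1.0, unadjusted p = 0.0082). In this comparison 0.00668% of all probes were called, 2 in number and both higher in occluded mucosa. All 3 occluded values below all 3 normal values were seen for both Chil4 probes and for 3.09% of all probes. The occluded arrays here are those of the comparison that chose the gene, so only the normal arrays are new to it.

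Open mucosa did not differ detectably from normal mucosa in Chil4. The brighter probe averaged 14.82 ± 1.18 in open mucosa and 14.24 ± 0.67 in normal mucosa (SD, n = 3 each), a difference of 0.58 ± 0.58 (SE; limma adjusted p = 1.0). The 95% interval of that difference was -0.74 to 1.90, so a sizeable change in either direction lies within it. The second probe differed by 0.66 ± 0.74 (SE), with an interval of -1.02 to 2.34. Between open and normal mucosa 0% of the 29922 probes passed with limma, and 477 (1.59%) had an unadjusted p under 0.05. The difference at the brighter probe was 0.04 without open replicate 3 and 1.14 without open replicate 2.

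Replicates of Chil4 differed most in open mucosa. At the brighter probe the SD of the 3 arrays of a replicate lay between 0.04 and 0.18, against an SD between replicates of 1.18 in open, 0.67 in normal and 0.31 in occluded mucosa. At the second probe the SD between replicates was 1.38 in open, 1.16 in normal and 0.21 in occluded mucosa, and the SD of the 3 arrays of a replicate lay between 0.07 and 0.36. The 3 occluded replicates thus lay closest together at both probes. That the groups differ in spread was not tested.

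Chil3, the near copy of Chil4, did not show a drop of this size. It read 11.73, 10.92 and 10.13 in occluded replicates 1 to 3, against 11.36, 11.24 and 11.71 in open replicates 1 to 3. It read 10.47, 12.21 and 11.09 in normal replicates 1 to 3. The 3 groups overlapped, and the highest occluded replicate lay just above the highest open one.

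Occluded minus open for Chil3 averaged -0.51 ± 0.42 (SE), and by replicate number it was 0.37, -0.31 and -1.57. The last of these, a 2.98-fold lower intensity, came from the replicate number with the deepest Chil4 difference. Without both sides of that number the Chil3 difference was 0.03. Chil3 averaged 10.93 ± 0.80 in occluded and 11.25 ± 0.89 in normal mucosa (SD, n = 3 each), a difference of -0.33 ± 0.54 (SE; limma adjusted p = 1.0) with an interval of -1.55 to 0.89. The difference of open from normal was 0.18 ± 0.54 (SE; limma adjusted p = 1.0) with an interval of -1.04 to 1.40.

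Because Chil4 and Chil3 are near copies, a probe of one may also bind the transcript of the other. Probe sequences were not used here, so how much signal they share was not tested. The Chil4 reading minus the Chil3 reading within a replicate shows whether they changed unequally, though the gap itself is no ratio of transcripts. This quantity was chosen after the values were seen and is built on the Chil4 values that selected the family, so it is described without a test. It was 0.15, 0.35 and 1.31 in occluded replicates 1 to 3, against 3.72, 2.29 and 4.15 in open replicates 1 to 3. It was 3.45, 2.80 and 2.70 in normal replicates 1 to 3. The smaller gap of the occluded replicates restates the low Chil4 readings beside a Chil3 reading that overlapped between groups. The mean gap was 0.60 ± 0.62 in occluded and 2.99 ± 0.41 in normal mucosa, a difference of -2.38 (SD, n = 3 each). It was 3.39 ± 0.97 in open mucosa (SD, n = 3), 0.40 above that of normal mucosa.

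**Figure D3:**
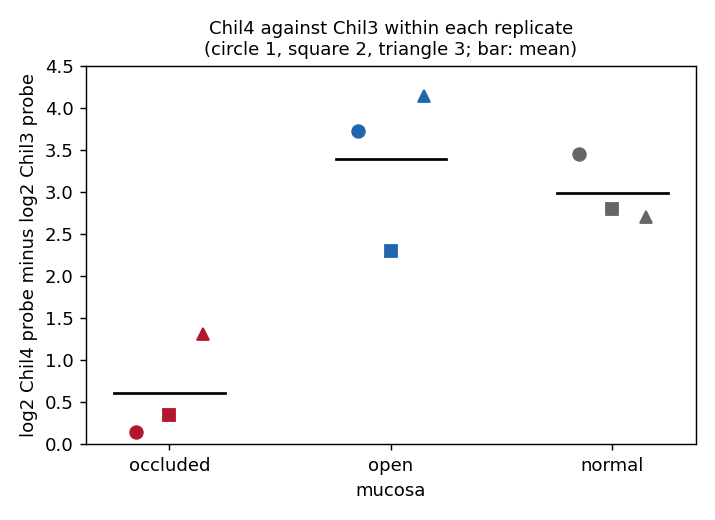
Log2 reading of the brighter Chil4 probe minus that of the Chil3 probe (vertical axis) in each replicate of occluded, open and normal mucosa. Symbols are replicates 1 (circle), 2 (square) and 3 (triangle), and bars are group means. The occluded replicates lie between 0.15 and 1.31 and the open and normal replicates between 2.29 and 4.15.

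Chia1, the active chitinase of the group, was measured at similar levels in all groups. It read 8.76, 8.43 and 7.94 in occluded replicates 1 to 3, against 8.82, 8.36 and 8.16 in open replicates 1 to 3. It read 8.40, 8.54 and 7.98 in normal replicates 1 to 3. Values of all 3 groups interleaved, and the replicates differed among themselves by more than the groups did. Occluded minus open was -0.07 ± 0.20 (SE), with an interval of -0.53 to 0.39. The difference of occluded from normal was 0.07 ± 0.26 (SE), with an interval of -0.52 to 0.66. Open differed from normal by 0.14 ± 0.26 (SE), with an interval of -0.45 to 0.73. Both comparisons with normal mucosa had a limma adjusted p of 1.0.

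Chi3l1, a lectin released by macrophages, neutrophils and injured epithelia, showed a small and even gap between the sides. It read 10.40, 10.58 and 10.50 in occluded replicates 1 to 3, against 10.80, 10.92 and 10.77 in open replicates 1 to 3. All occluded values lay below all open values, as they did for the 2.94% of probes given above. The replicates differed by -0.40, -0.34 and -0.27, a mean of -0.34 ± 0.24 (SE) or 1.26-fold lower. The interval of that mean, -0.88 to 0.20, included 0.

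In normal replicates 1 to 3 Chi3l1 read 9.86, 11.08 and 10.93, a range that took in both sides of the occluded mice. The 3 arrays of normal replicate 1 were uneven, with an SD of 0.58 and intensities of 595 to 1175. Occluded differed from normal by -0.13 ± 0.30 (SE), with an interval of -0.82 to 0.56, and open from normal by 0.21 ± 0.30 (SE), with an interval of -0.48 to 0.90 (limma adjusted p = 1.0 for both). Of the 5 probes, 0 passed with limma in either comparison with normal mucosa, and the 2 Chil4 probes had an unadjusted p under 0.05 in occluded against normal, as did 2.88% of all probes. None of the 5 lay below the noise limit on any of the 27 arrays.

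The 5 protein-coding genes on each side of the cluster in RefSeq were read for the same arrays, and 9 of these 10 neighbours were on the array. Their differences of occluded from open lay between -0.16 and 0.31, those of occluded from normal between -0.05 and 0.57 and those of open from normal between -0.09 and 0.47. None passed in either comparison with normal mucosa. Chil5, the next chitinase-like gene, differed by -0.07 from open and -0.05 from normal mucosa on the occluded side. Ovgp1, an oviduct glycoprotein of the same enzyme family, differed by 0.11 and 0.02. Among the measured genes flanking the family, none came within the range of the Chil4 difference.

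**Figure D4:**
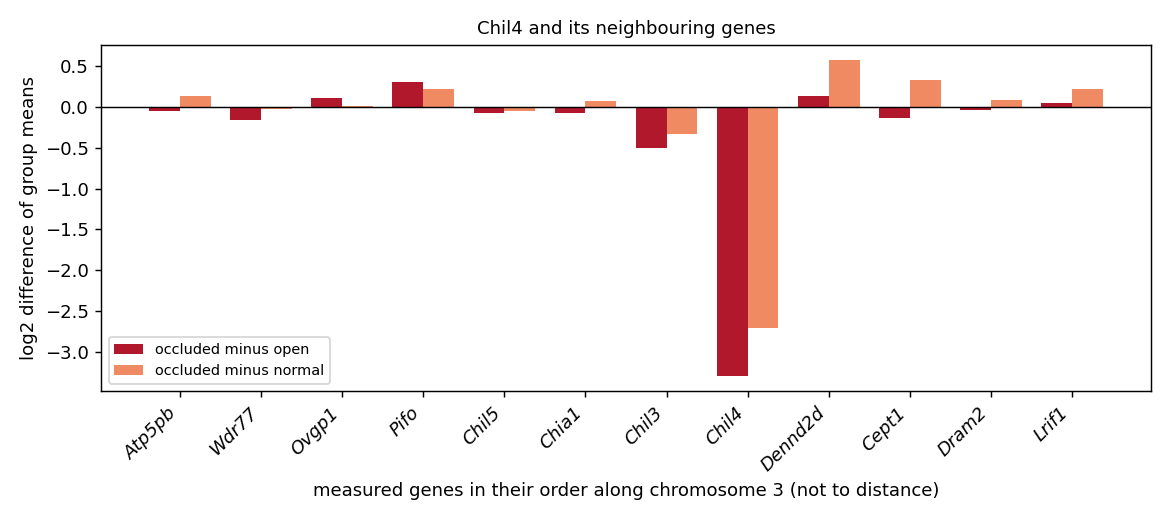
Log2 difference of group means (vertical axis) for Chil4 and the 11 other measured genes of its neighbourhood, in their order along chromosome 3 (horizontal axis, not to distance). Dark bars are occluded minus open and light bars occluded minus normal. Chil4 stands at -3.29 and -2.71 and Chil3 at -0.51 and -0.33, and no other gene is below -0.16.

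Of 6 listed other members of the glycosyl hydrolase 18 family, 4 were measured, and none passed or had an unadjusted p under 0.05 in any comparison. Chit1 (chitotriosidase), the chitinase of macrophages, lay below the noise limit on all 27 arrays. Ctbs, the lysosomal chitobiase, read 9.90 in occluded, 9.92 in open and 9.78 in normal mucosa. Chil5 and Ovgp1 are given above. The list had a median difference of -0.04 between occluded and open, against 0.0042 for all probes.

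Genes of the IL-4 and IL-13 pathway, which drives Chil3 and Chil4 in the airway, were read as lists of ligands, receptors, transducers and targets. None of their members was called in any comparison, and all of the p-values here are limma's over all probes. Between the sides 6.19% of all probes had an unadjusted p under 0.05, and the counts of listed genes under that limit stand beside this share. Among 6 measured ligands, Il33, an epithelial alarmin, read 11.71 in occluded, 12.16 in open and 12.10 in normal mucosa. It was the only ligand with an unadjusted p under 0.05 between the sides (-0.46 ± 0.14, SE; adjusted p = 0.54). Il13 read 9.45, 9.37 and 9.39 in occluded, open and normal mucosa, and Il4 lay below the noise limit on 24 of 27 arrays. The ligands had a median difference of 0.0012 between the sides. Their summed level lay between 12.06 and 12.29 in occluded, 12.51 and 12.59 in open and 12.38 and 12.63 in normal replicates. Il33 gives most of this sum, so it is no measure of IL-4 or IL-13. The occluded sums lay below all others, an order that 0.916% of all single probes also had.

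The 7 measured receptors had a median difference of 0.07 between occluded and open mucosa and none had an unadjusted p under 0.05. Il4ra, the shared receptor chain of IL-4 and IL-13, differed by 0.27 ± 0.17 (SE; adjusted p = 0.94). Il13ra2, an IL-13 decoy receptor that also binds Chi3l1, differed by -0.63 ± 0.33 (SE; adjusted p = 0.89). The 7 transducers had a median of -0.12, with 1 below an unadjusted p of 0.05. That gene was Stat6, the transcription factor of the IL-4 and IL-13 pathway. It read 9.69 in occluded, 10.04 in open and 9.99 in normal mucosa (-0.35 ± 0.14 between the sides, SE; adjusted p = 0.77).

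Of the 19 measured targets, 7 lay above and 12 below 0 between the sides, with a median of -0.17. Those with an unadjusted p under 0.05 were Foxa3, Itln1, Clec7a and Fcgbp, 4 of 19 against the 6.19% of all probes. Foxa3, a factor of mucous cells, differed by -0.61 ± 0.18 (SE; adjusted p = 0.48), and Itln1, a goblet cell lectin that binds microbial sugars, by -0.98 ± 0.37 (SE; adjusted p = 0.69). Clec7a, the beta-glucan receptor Dectin-1, differed by -0.41 ± 0.16 (SE), and the mucus protein Fcgbp, below the noise limit on 3 of 27 arrays, by 0.80 ± 0.34 (SE). Among classic companions of Chil3 in alternatively activated macrophages, Arg1 differed by 0.11 ± 0.21 and Retnla by -0.15 ± 0.29 (SE). Mrc1 differed by -0.35 ± 0.15 (SE), close to the difference of Clec7a. Against normal mucosa the targets had a median of -0.02 and 0 of 19 had an unadjusted p under 0.05.

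Markers of cells that can make these proteins were read beside them. The summed log2 level of 4 measured eosinophil markers lay between 10.08 and 11.00 in occluded, 11.34 and 11.49 in open and 10.64 and 11.55 in normal replicates. Prg2 gave most of that sum, so the sum and Prg2 are not separate readings. Prg2, the eosinophil major basic protein, read 9.98, 10.74 and 9.50 in occluded replicates 1 to 3, against 11.23, 11.24 and 11.09 in open replicates 1 to 3. It read 10.25, 11.29 and 10.75 in normal replicates 1 to 3. All occluded values lay below all open values, as they did for 2.94% of all probes. Prg2 was named for the smallest p of its list, and its difference of -1.11 ± 0.28 (SE) did not pass (limma adjusted p = 0.32). The other markers of the list differed by less: Epx, the eosinophil peroxidase, by -0.22 ± 0.18, Prg3 by -0.23 ± 0.19 and Ccr3 by -0.18 ± 0.21 (SE). The part of eosinophils in the Chil4 difference was not tested.

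The summed level of 12 macrophage markers lay between 12.89 and 13.57 in occluded, 13.16 and 13.44 in open and 13.10 and 13.29 in normal replicates. Of these markers 4 lay above and 8 below 0 between the sides. Among those above was Cd163 (0.92 ± 0.31, SE), which lay below the noise limit on all 27 arrays. Cd14 differed by -0.64 ± 0.27 and the pan-macrophage marker Adgre1 by -0.20 ± 0.16 (SE; limma adjusted p = 0.80 and 0.99). Of 11 neutrophil markers, 1 (Ltf) was saturated on 3 of 27 arrays. The sum of the other 10 lay between 13.35 and 14.10 in occluded, 13.96 and 14.54 in open and 12.72 and 14.56 in normal replicates, with 2 markers above and 8 below 0 between the sides. Lcn2, an iron-withholding secreted protein, differed by -0.84 ± 0.36 and Retnlg by -0.70 ± 0.28 (SE; limma adjusted p = 0.80 and 0.76). Ngp differed by only -0.0083 ± 0.29 (SE). Against normal mucosa, 9 of the 11 neutrophil markers (Ltf included) lay above 0 in occluded and 10 in open mucosa. Their median differences were 0.35 and 0.72, and none was called. The sums of both lists overlapped between all groups.

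Several bright epithelial and gland markers were at the top of the scale, Cbr2 and Cyp2f2 on all 27 arrays and Bpifb3 on 21, and saturated readings show no change either way. Sums over the markers that were saturated on no array, a choice made after the values were seen, are given instead. For 6 of 8 sustentacular cell markers, the supporting cells of the olfactory epithelium, that sum lay between 15.97 and 16.54 in occluded, 15.96 and 16.58 in open and 16.10 and 16.38 in normal replicates. For 8 of 15 markers of Bowman's glands and nasal secretion it lay between 15.88 and 16.28 in occluded, 16.10 and 16.64 in open and 16.01 and 16.60 in normal replicates. Of these 8 markers, 1 lay above and 7 below 0 between the sides, with a median of -0.24. The marker above 0 was Odam, with the largest difference of the 8 (2.34 ± 1.16, SE; limma adjusted p = 0.87). Pigr, the receptor that carries IgA into secretions, differed by -0.82 ± 0.23 (SE; limma adjusted p = 0.42). Among the markers left out of that sum, the largest differences were those of Lcn4 (-2.68), Obp2a (-1.66), Obp1a (1.07) and Lcn3 (-1.06). Their SE lay between 0.88 and 2.22, and each was saturated on 3 to 12 of 27 arrays. For 8 of 9 respiratory epithelium markers the sum lay between 15.13 and 15.63 in occluded, 14.96 and 15.67 in open and 15.30 and 15.85 in normal replicates. The groups overlapped in each of these sums. The part of these cells in the Chil4 difference was not tested.

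Of 7 mature olfactory neuron markers, Omp was saturated on 26 and Cnga2 on 3 of 27 arrays. The other 5 all lay above 0 between the sides, with a median of 0.47. Their sum lay between 16.56 and 16.84 in occluded, 16.21 and 16.45 in open and 16.27 and 16.48 in normal replicates. The occluded sums were thus highest, but how many probes share that order was not counted, and nothing is read from it. None of the 7 markers was called, and the smallest limma adjusted p between the sides was 0.55. The part of neurons in the Chil4 difference was not tested. Median differences between the sides were -0.10 for 2 blood markers, 0.11 for 5 skeletal muscle markers and 0.06 for 4 bone and cartilage markers. Against normal mucosa the bone and cartilage markers had a median of -0.54 in occluded and -0.61 in open mucosa. In each of these, 1 lay above and 3 below 0, and none was called. Over all 15 lists, 118 of 138 genes were measured and 0 were called by limma in any comparison. Between the sides 8 had an unadjusted p under 0.05 and lay higher and 11 lay lower, beside 6.19% of all probes in either direction. Against normal mucosa it was 1 higher and 0 lower in occluded mucosa, beside 2.88% of all probes, and 2 higher and 2 lower in open mucosa, beside 1.59%.

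Within the family the readings did not move as 1 unit over the 9 replicates. The Pearson correlation of the brighter Chil4 probe was 0.53 with Chil3, 0.36 with Chi3l1 and 0.12 with Chia1. That of the second Chil4 probe was 0.56 with Chil3, 0.52 with Chi3l1 and -0.05 with Chia1. Chil3 had a correlation of 0.59 with Chi3l1 and 0.50 with Chia1. With group means removed, Chil3 had a correlation of 0.57 with the brighter Chil4 probe, 0.53 with Chi3l1 and 0.52 with Chia1. These are descriptions over 9 values that share mice and normalization.

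The genes whose 9 values were most like those of the brighter Chil4 probe were sought among 2341 genes that were detected on at least 14 arrays and had an SD of at least 0.5. They were Pcp4l1 (Pearson r = 0.93), Slc8a1 (0.92), Slc24a1 (0.91), Pcdh10 (0.89) and Cxcl2 (0.87). Slc8a1 and Slc24a1 encode sodium-calcium exchangers, Pcdh10 a protocadherin, Pcp4l1 a small protein related to a calmodulin binder and Cxcl2 a neutrophil-attracting chemokine. In each of the 5, every occluded value lay below every open and normal value, which the choice by likeness to Chil4 largely fixes and from which nothing is read. The pattern was found in 24 of the 2341 genes (1.03%) and in 0.916% of all probes. Slc24a1, for example, ranged from 6.62 to 6.93 in occluded, 8.32 to 8.82 in open and 8.05 to 8.87 in normal replicates. Cxcl2 was dim, with 8 of 27 arrays below the noise limit. With group means removed the correlations were 0.63 for Pcp4l1, 0.53 for Slc8a1, 0.42 for Slc24a1, 0.12 for Pcdh10 and 0.67 for Cxcl2. Each of the 5 was lower than before, and that of Pcdh10 fell the most.

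For Chi3l1 the most similar genes were Fgf7 (r = 0.93), Lrrcc1 (0.92), Rtca (0.90), Styx (0.89) and Taf13 (0.88). With group means removed their correlations lay between 0.88 and 0.95. Lrrcc1 and Styx were below the noise limit on 8 and 9 of 27 arrays. None of the 5 was among those most like Chil4.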

How the data were processed

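The deposited values are linear intensity values of 29922 probes on 27 arrays. Amplified RNA was labelled with Cy5, 1 sample per array, per the labels' protocols. On each array 1.45% to 3.93% of them are 0 or negative, so some background had been taken off. The sources used here name no scanner or normalization. Array medians ran from 123 to 274, and the number of arrays and mice limits the precision.

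Before log2, 0 and negative values were raised to 0.912, the smallest positive value. Quantile normalization over all arrays was followed by a mean over the 3 arrays of each replicate, which left 9 values per probe. limma 3.58.1 in R 4.3.3 fitted all probes over 3 groups, with the mouse as a random block (statmod 1.5.0, consensus correlation 0.389) because the design text states repeated measures. Tests were two-sided with Benjamini-Hochberg adjustment. Occluded and open replicates of equal number were read as 1 mouse, and deviations of such pairs from the group means correlated at 0.52, -0.0044 and 0.14, which does not settle the pairing. The noise limit of an array, 3 times the root mean square of its negative values, lay between 11.6 and 24.1. The labels give no batch or scan date.

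Probe genes came from the array's annotation table, with older symbols updated through RefSeq's gene table. For genes outside the family the brightest probe stands for the gene. Named genes were all probes of the family, the measured relatives and neighbours, up to 3 genes with the smallest p from each list, and the 5 genes most correlated with Chil4 and with Chi3l1. Defining genes of a list (Il13, Il4, Il4ra, Arg1, Retnla, Mrc1, Adgre1, Epx), Fcgbp, Ccr3, Ngp, Odam and the saturated markers were named beside it after their values were seen. Members and lists were chosen with earlier results of these data known. The fit was tested on simulated data. Promoters were aligned with Biopython 1.88.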

Additional observations from a re-analysis of the deposited data

How the results depend on the processing

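Under all alternatives run, both Chil4 probes stayed below 0 in occluded minus open (18 alternatives each, -3.85 to -2.73 and -3.72 to -2.47) and in occluded minus normal (16 each, -2.98 to -2.32 and -3.01 to -1.87). The adjusted p of the brighter probe against normal mucosa lay between 0.29 and 1.0 and that of the second between 0.72 and 1.0. In this balanced design the replicate block, the prior, the dropping of dim probes and a fit of the compared groups alone cannot move a difference of group means. The brighter probe therefore stayed at -3.29 between the sides under each of them, which says nothing of robustness. All occluded Chil4 values lay below all open and normal ones, so leaving out a replicate could hardly turn its sign either. Those settings show only how far the size moved. Normalization, centring, the offset and the floor kept every direction of Chil4. Signs of differences from normal mucosa that had not passed turned in single settings. The second Chil4 probe in open minus normal ranged from -0.043, without open replicate 3, to 1.30 when a replicate was left out. In the same way Chil3 ranged from -0.72 to 0.15 in occluded and from -0.22 to 0.66 in open minus normal, Chia1 from -0.17 to 0.21 and from -0.092 to 0.26, and Chi3l1 from -0.51 to 0.10 and from -0.17 to 0.44. Chi3l1 was 0.029 in occluded minus normal with the median of the 3 arrays. Between the sides, Chia1 ranged from -0.31 to 0.16 with a replicate left out. It was above 0 without open replicate 1 (0.16) and without occluded replicate 3 (0.067). Without replicate 3 of both sides, Chia1 (0.0056) and Chil3 (0.03) were both above 0. The cause was not tested. Between the sides 66 probes were called. The count was 3 with no replicate block, 2 with the number as a fixed block and 0 with the pair as a fixed block. It was 0 without normalization, 37 with median centring, 14 with both sides alone in the fit and 102 with a trended robust prior. It was 6 without replicate 3 of both sides and 0 to 123 with a replicate left out. Against normal mucosa the 2 calls of the occluded side became 0 to 26. With 3 replicates a group, the 95% intervals of all differences of Chil3, Chia1 and Chi3l1 included 0.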
